A study of Mus musculus with 65 samples.

Results

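Binding of LDB1, the cohesin subunit RAD21, CTCF and YY1 was examined at the loci of Klf1 and Bcl11a, a pair of regulators of the globin genes. All peaks with at least 1 bp inside a fixed window around each gene were taken from 9 sets of ChIP-seq peaks. The Klf1 window was chr8:87380000-87470000 (90 kb) and the Bcl11a window, which was set to include the gene's intronic enhancers, was chr11:23930000-24150000 (220 kb), both in mouse build mm9. The windows held 69 of the 143220 peaks of all sets, with 29 peaks in the Klf1 window and 40 in the Bcl11a window.

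All samples came from G1E-ER4, a mouse erythroblast line that derives from Gata1-null cells and carries a GATA1-estrogen receptor fusion. The labels do not say whether the fusion was induced or whether a subline is a single clone. The sublines LDB1-AID and SMC3-AID have a degron on LDB1 and on the cohesin subunit SMC3, respectively, through which auxin causes the tagged protein to be degraded. Cells were either untreated or exposed to auxin for 4 h. The untreated LDB1-AID cells had peak sets for LDB1, RAD21, CTCF and YY1, and the auxin-treated ones a set for LDB1. Both the untreated and the auxin-treated SMC3-AID cells had sets for LDB1 and RAD21. Each set combined the replicates of its group, 2 for LDB1-AID and 3 for SMC3-AID, so no value has a replicate error and no test between conditions could be made. Peaks hold no expression values, so the erythroid identity of the cells could not be checked against marker genes.

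Klf1 encodes an erythroid zinc-finger activator that binds CACCC elements, among them that of the adult beta-globin promoter. Bcl11a encodes a zinc-finger repressor that silences embryonic and fetal globin genes, and its erythroid expression depends on an enhancer of several elements inside an intron. LDB1 does not bind DNA itself and is brought to erythroid enhancers by GATA1, TAL1 and LMO2, commonly at a GATA motif next to an E-box, where its self-association can join distant elements. CTCF binds insulators and domain borders, cohesin accumulates at CTCF sites during loop extrusion, and YY1 binds many promoters and enhancers. In the RefSeq annotation of GRCm38 the protein-coding neighbours of Klf1 were Gcdh, a mitochondrial dehydrogenase gene, and Dnase2a, the gene of a lysosomal DNase. Those of Bcl11a were Papolg, a poly(A) polymerase gene, and Fancl, which encodes the ubiquitin ligase of the Fanconi anemia pathway.

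The 250 bases before the start site of each gene are shown as the regulatory sequences closest to the genes under study (RefSeq, GRCm38.p6, plus strand, 5′ to 3′). Capitals mark matches to the GATA motif TGATAA and to the E-box CANNTG on either strand. The peaks are in another build, so the position of a peak relative to these sequences was not measured.
Klf1: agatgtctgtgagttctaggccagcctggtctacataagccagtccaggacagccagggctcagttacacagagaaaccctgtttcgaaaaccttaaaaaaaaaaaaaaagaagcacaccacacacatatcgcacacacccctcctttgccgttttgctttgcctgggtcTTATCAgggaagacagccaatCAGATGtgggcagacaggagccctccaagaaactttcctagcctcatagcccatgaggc
Bcl11a: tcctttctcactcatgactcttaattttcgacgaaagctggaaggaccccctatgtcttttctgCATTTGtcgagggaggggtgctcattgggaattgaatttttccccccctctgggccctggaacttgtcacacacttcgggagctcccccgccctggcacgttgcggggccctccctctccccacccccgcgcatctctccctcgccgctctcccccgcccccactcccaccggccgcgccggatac
The Klf1 sequence held 1 TGATAA, read on the opposite strand and starting at -80 from the start site, and 1 E-box starting at -59. TGATAA was searched after the sequence had been seen, and 7.94% of 32851 promoter sequences of the same length held it. An E-box was present in 66.2% of them, and the Bcl11a sequence held 1, starting at -186. Neither sequence held AGATAA (9.99% of promoters), the KLF motif CCACACCC (3.2%), the YY1 motif AAGATGGC (1.56%) or the CTCF core AGGGGGC (9.43%). Only these exact letters were searched. The shorter CACCC, which both printed sequences hold, was not counted over the promoters. The matches did not overlap each other. The Bcl11a sequence had a GC content of 62% with 16 CpG dinucleotides and the Klf1 sequence 49.2% with 3, beside medians of 52.4% and 6 over all promoters.

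Both windows held peaks of all 4 proteins in untreated cells. After auxin neither held a peak of LDB1 where LDB1 was degraded or of RAD21 where SMC3 was degraded, while LDB1 peaks were still called in SMC3-AID cells. In untreated LDB1-AID cells the Klf1 window held 1 LDB1, 7 RAD21, 10 CTCF and 3 YY1 peaks. The Bcl11a window held 4 LDB1, 11 RAD21, 10 CTCF and 7 YY1 peaks. After auxin, LDB1-AID cells had 0 LDB1 peaks in either window. Untreated SMC3-AID cells had 2 LDB1 and 4 RAD21 peaks in the Klf1 window and the same numbers in the Bcl11a window. After auxin, SMC3-AID cells had 2 LDB1 peaks in each window and 0 RAD21 peaks in both. SMC3 itself was not profiled in these sets.

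**Figure D1:**
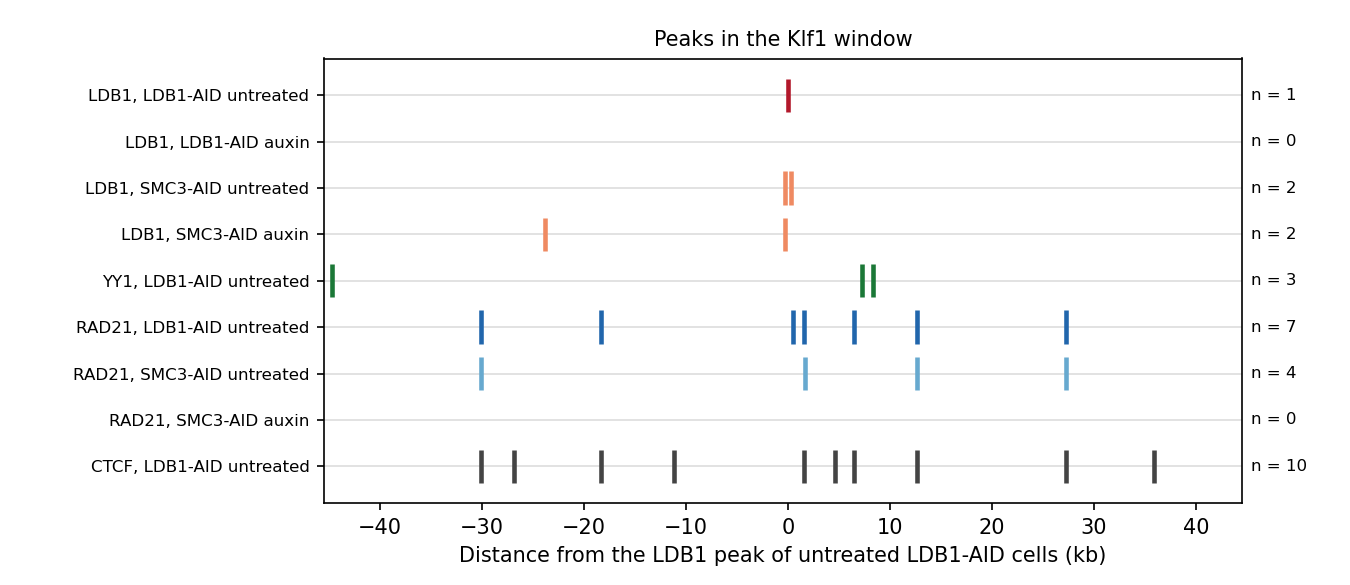
Peaks in the Klf1 window, with the distance in kb from the LDB1 peak of untreated LDB1-AID cells on the horizontal axis, a row for each of the 9 peak sets and a tick for each peak midpoint (number of peaks at the right). The LDB1 peaks of untreated cells lie at a single place, and the rows of LDB1 in auxin-treated LDB1-AID cells and of RAD21 in auxin-treated SMC3-AID cells are empty.

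Per length, the peaks of untreated cells were denser in both windows than over the main chromosomes. LDB1 of LDB1-AID cells had 1.11 peaks per 100 kb in the Klf1 window and 1.82 in the Bcl11a window, beside 0.418 over the main chromosomes. CTCF had 11.1, 4.55 and 2.11 peaks per 100 kb in the same order, and YY1 had 3.33, 3.18 and 0.499. RAD21 of LDB1-AID cells had 7.78, 5 and 1.29. In untreated SMC3-AID cells RAD21 had 4.44, 1.82 and 0.593 peaks per 100 kb, and LDB1 had 2.22, 0.909 and 0.334. The LDB1 values at Klf1 rest on 1 peak in LDB1-AID cells and on 2 in untreated SMC3-AID cells. The midpoints of those 2 were 562 bp apart, so both values describe the same stretch. The densities were not tested, since the windows were chosen around known genes and not drawn from the genome.

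**Figure D2:**
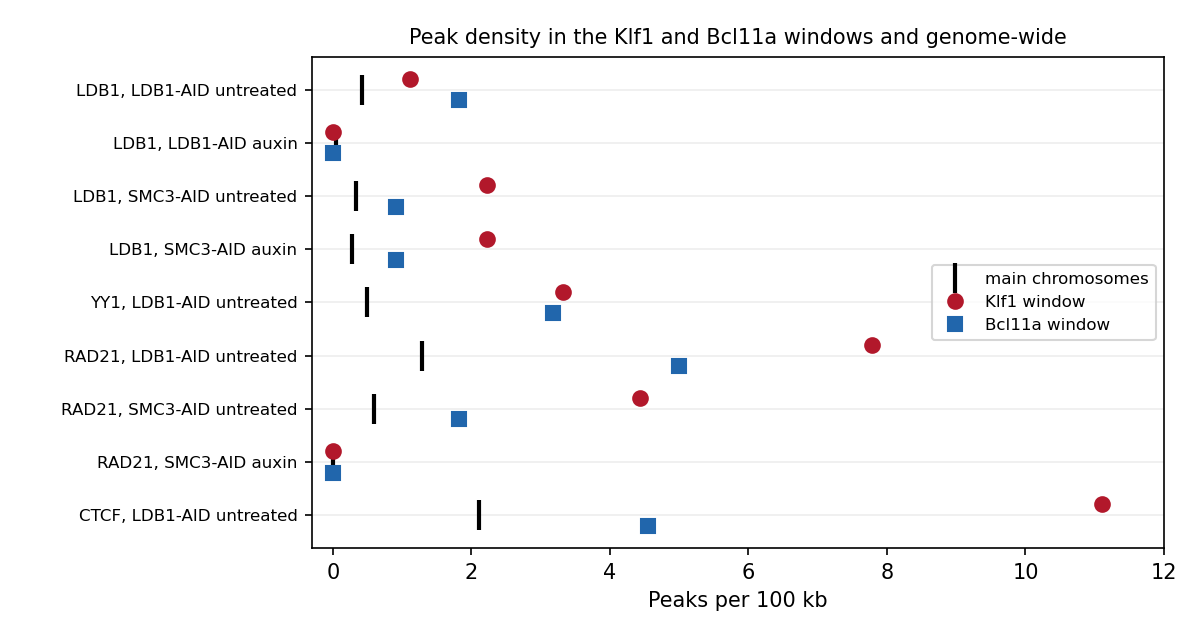
Peaks per 100 kb for each of the 9 peak sets in the Klf1 window (circles), the Bcl11a window (squares) and over the main chromosomes (bars). Circles and squares are shifted up and down to keep them apart; CTCF reached 11.1 per 100 kb in the Klf1 window, and both windows stand at 0 for LDB1 in auxin-treated LDB1-AID cells and for RAD21 in auxin-treated SMC3-AID cells.

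Merging all peaks that overlapped by at least 1 bp gave 15 occupied sites in the Klf1 window and 17 in the Bcl11a window. The sites pool both sublines and both auxin states, and such sites were not counted genome-wide. LDB1 was present at 2 of the 15 and at 4 of the 17. At Klf1, the site chr8:87401438-87401837 held LDB1 of auxin-treated SMC3-AID cells only. No site held both LDB1 and CTCF, where 7.4% of all LDB1 peaks of untreated LDB1-AID cells overlapped CTCF. CTCF occupied 10 sites in each window. CTCF with RAD21 and no other protein was found at 6 Klf1 sites and 8 Bcl11a sites. YY1 stood alone at 3 sites in each window. Sites with 3 proteins numbered 0 in the Klf1 window and 3 in the Bcl11a window, of which 2 held LDB1, RAD21 and YY1 and 1 held CTCF, RAD21 and YY1.

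At Klf1, LDB1 of untreated cells was called in a single stretch of less than 1 kb in both sublines. LDB1-AID cells had 1 peak there, chr8:87425296-87425695. Untreated SMC3-AID cells had a pair of peaks, chr8:87425009-87425408 and chr8:87425571-87425970, whose midpoints were 562 bp apart. The LDB1-AID peak lay between the members of that pair and overlapped the lower one by 113 bp and the upper one by 125 bp. Its midpoint was 275 bp from the nearer one, where the median over 7192 LDB1 peaks shared by the untreated sublines was 25 bp (quartiles 12 and 47). An offset that large was found at 1.33% of the shared peaks, and 27 of 10729 LDB1-AID peaks (0.252%) overlapped 2 peaks of SMC3-AID cells. The sublines thus marked the same stretch of the Klf1 locus with different peak positions.

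RAD21 of LDB1-AID cells had a peak at chr8:87425801-87426200 beside this LDB1 site, without CTCF. It missed the LDB1 peak of the same cells by a gap of 105 bp. Under the 1 bp rule 0 of 1 LDB1 peaks at Klf1 thus carried RAD21, beside 25.1% of all LDB1 peaks. The RAD21 peak overlapped the upper LDB1 peak of untreated SMC3-AID cells by 170 bp. The RAD21 set of untreated SMC3-AID cells had no peak at this place, and its nearest one lay 1.62 kb from the LDB1-AID peak. The nearest YY1 peak was 7.25 kb from the LDB1-AID peak, beside a median of 10.5 kb (quartiles 0.877 and 40.6) over all LDB1 peaks.

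Loss of SMC3 left the lower LDB1 peak of the Klf1 pair in place and the upper one was not called. The kept peak, chr8:87425006-87425405, had moved its midpoint by 3 bp, beside a median of 19 bp (quartiles 9 and 34) over the 6715 kept peaks of this subline. Over all LDB1 peaks of untreated SMC3-AID cells, 21.8% were not found after auxin. Peaks with an LDB1 neighbour within 1 kb, as in the Klf1 pair, made up 3.83% of the set (329 peaks), and 22.8% of these were not found, beside 21.7% of the 8256 others. The smallest distance between midpoints in this set was 542 bp. Whether the 2 peaks of the pair are separate binding sites cannot be read from positions alone.

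An additional LDB1 peak appeared in the Klf1 window after SMC3 depletion, at chr8:87401438-87401837, 23.9 kb from the LDB1-AID peak. No other set had a peak there, including the untreated sets of LDB1 in both sublines. The nearest CTCF peaks were 3.01 kb below and 5.51 kb above it. Such peaks without an untreated counterpart made up 7.23% of the LDB1 peaks of auxin-treated SMC3-AID cells.

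The Klf1 LDB1 site lay close to a CTCF site of LDB1-AID cells where RAD21 was called in both sublines. The CTCF peak above it, chr8:87426869-87427268, was 1.57 kb away and the one below it, chr8:87414145-87414544, was 11.2 kb away, so that the interval between them measured 12.7 kb. Over all LDB1 peaks the median distance to the nearest CTCF peak was 6.32 kb (quartiles 1.99 and 16.2). The upper CTCF peak overlapped RAD21 in untreated LDB1-AID and SMC3-AID cells, and the lower one overlapped RAD21 in neither. The next LDB1 peaks of LDB1-AID cells lay outside the window, 53.7 kb below and 65.3 kb above. Of 10709 gaps between neighbouring LDB1 peaks, 43.5% and 39.5% were at least as long, with a median gap of 39.9 kb.

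At Bcl11a, LDB1 of untreated LDB1-AID cells formed a group of 3 peaks within 6.67 kb and a further peak 22 kb above the third. The peaks were chr11:24029779-24030178, chr11:24032839-24033238, chr11:24036045-24036444 and chr11:24058014-24058413. In untreated SMC3-AID cells LDB1 was called at the first and the third of these, at chr11:24029763-24030162 and chr11:24036101-24036500. The midpoints differed between the sublines by 16 bp and 56 bp. The second and the fourth peak had no counterpart in SMC3-AID cells, untreated or treated. The share of LDB1-AID peaks shared with SMC3-AID cells was 67% over the main chromosomes and 2 of 4 in the Bcl11a window (Wilson 95% interval 15% to 85%). In the other direction all 4 LDB1 peaks of untreated SMC3-AID cells in both windows had a counterpart, beside 84.1%. The pair at Klf1 shared a single counterpart. With overlap of at least 50% of both peaks required, 0 of 2 at Klf1 and 2 of 2 at Bcl11a had one. The 84.1% is for the 1 bp rule, and no share over all peaks is given for the stricter rule.

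**Figure D3:**
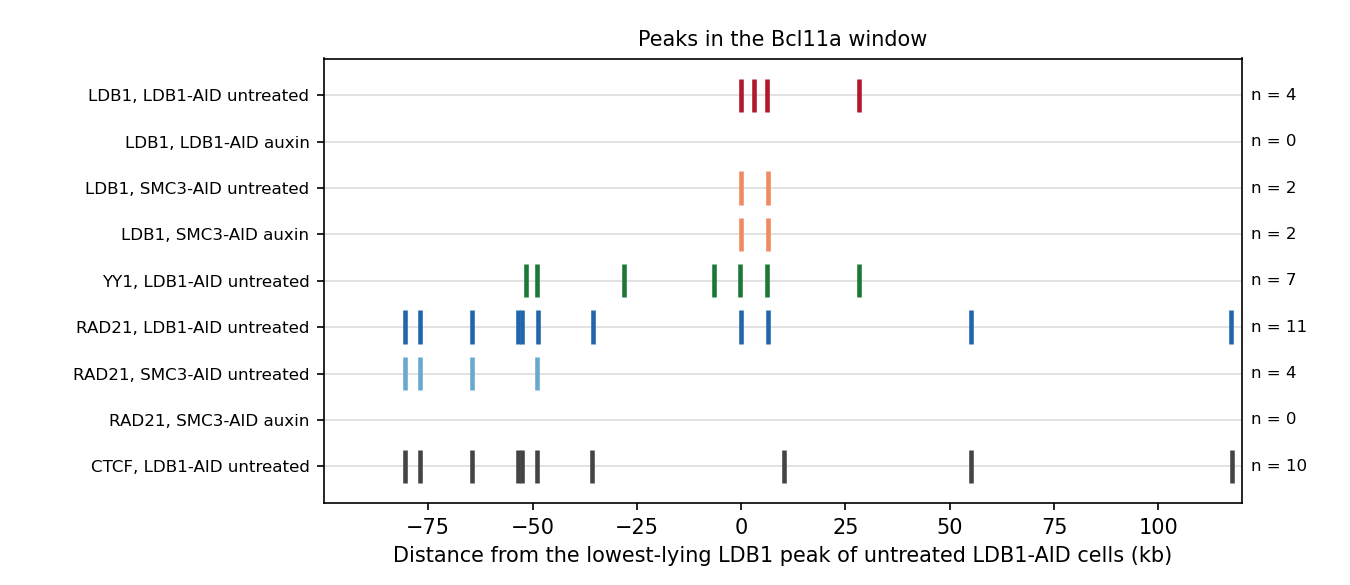
Peaks in the Bcl11a window, with the distance in kb from the lowest-lying LDB1 peak of untreated LDB1-AID cells on the horizontal axis, a row for each of the 9 peak sets and a tick for each peak midpoint (number of peaks at the right). The LDB1 peaks of SMC3-AID cells stand at the first and the third LDB1-AID peak with and without auxin, and the 4 RAD21 peaks of untreated SMC3-AID cells all lie below them.

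The 4 LDB1 peaks at Bcl11a differed in the proteins found with them. The first and the third, which both sublines shared, carried RAD21 and YY1 in LDB1-AID cells and no CTCF. The second carried no other protein, and the fourth carried YY1 alone. Thus 2 of 4 carried RAD21, 3 of 4 carried YY1 and 0 of 4 carried CTCF, where the shares over all LDB1 peaks were 25.1% for RAD21, 20.4% for YY1 and 7.4% for CTCF. The Wilson 95% intervals for 4 peaks, 15% to 85% for RAD21 and 30.1% to 95.4% for YY1, cover counting error only. The combination of RAD21 and YY1 without CTCF occurred at 7.37% of all LDB1 peaks (791 of 10729).

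The distance between peak midpoints of LDB1 and of the other proteins was measured at these peaks. RAD21 midpoints were 14 bp from the first LDB1 peak and 92 bp from the third. Over the 2697 LDB1 peaks with RAD21 the median was 83 bp (quartiles 37 and 160), and 45.8% were at least 92 bp apart. YY1 was 53 bp from the third and 13 bp from the fourth. At the first peak YY1 was 376 bp away, so that the 400 bp intervals shared 24 bp. An offset that large occurred at 2.24% of the 2190 LDB1 peaks with YY1, whose median offset was 120 bp (quartiles 55 and 207). Differences between the offsets were not tested.

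**Figure D4:**
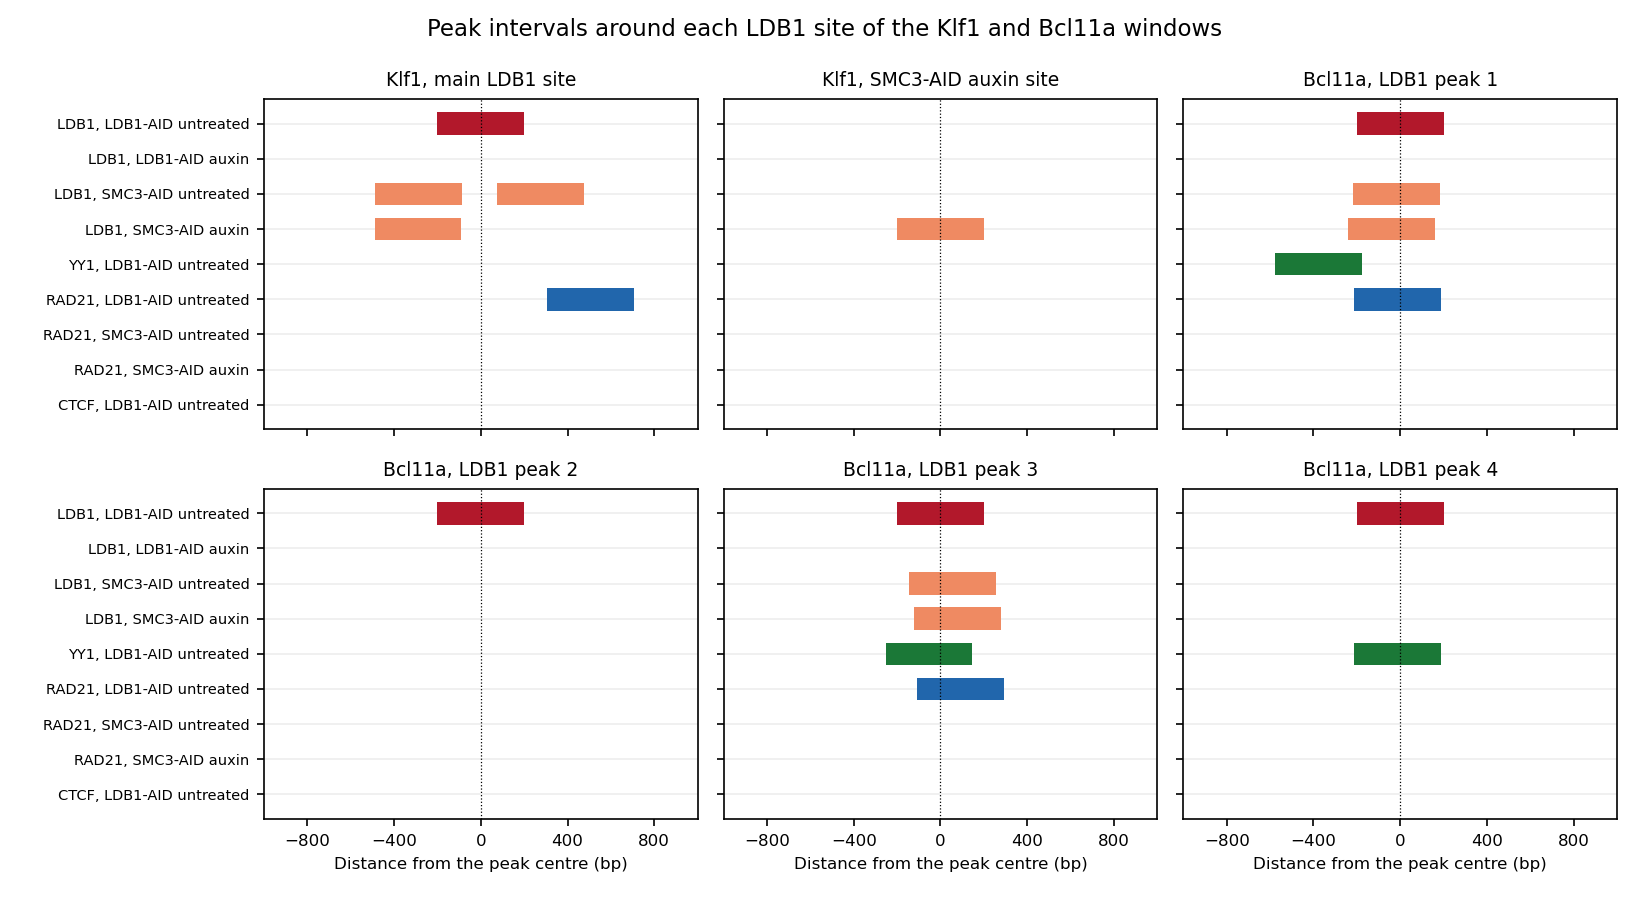
Peak intervals, 400 bp each, within 1 kb of the 6 LDB1 sites of the Klf1 and Bcl11a windows; the horizontal axis is the distance in bp from the centre of the LDB1 peak of untreated LDB1-AID cells (for the second panel, of auxin-treated SMC3-AID cells), with a row for each of the 9 peak sets. RAD21 of LDB1-AID cells lies on the first and the third LDB1 peak of Bcl11a and beside that of Klf1, and CTCF has no interval in any panel.

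After SMC3 depletion both LDB1 peaks of SMC3-AID cells at Bcl11a were kept, as chr11:24029739-24030138 and chr11:24036125-24036524. Each midpoint had moved by 24 bp, within the quartiles of the 6715 kept peaks. Over all LDB1 peaks of this subline 78.2% were kept, and in both windows together 3 of 4 were (Wilson 95% interval 30.1% to 95.4%). Of the 791 LDB1-AID peaks with RAD21 and YY1 and no CTCF, 82.6% had an LDB1 peak in SMC3-AID cells before auxin and 79% after it. For the class of the second Bcl11a peak, without other proteins, the shares before and after auxin were 62.9% and 53.4%. For the class of the fourth, with YY1 alone, they were 71.7% and 65.5%.

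After LDB1 depletion 0 of the 4 Bcl11a peaks and 0 of 1 at Klf1 were kept, beside 7.77% of all LDB1 peaks. For 0 of 5 peaks the Wilson 95% interval reaches up to 43.4%. Of the class with RAD21 and YY1 and no CTCF, to which the first and the third Bcl11a peak belong, 29% were kept genome-wide. Of the LDB1 peaks without the other proteins, to which the second Bcl11a peak and the Klf1 peak belong under the 1 bp rule, 3.08% were kept, and of those with YY1 alone 9.81%. The nearest LDB1 peak still called after auxin was 171 kb from the Klf1 peak and 1320 kb from the first Bcl11a peak. The auxin set was sparse, with 1043 peaks on the main chromosomes, or 0.0406 per 100 kb.

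The LDB1 peaks at Bcl11a stood far from any other LDB1 peak. In untreated LDB1-AID cells the next one below lay 737 kb away, at chr11:23292556-23292955, and the next one above 1200 kb away, at chr11:25257565-25257964. Gaps at least that long made up 7.25% and 4.78% of the 10709 gaps between neighbouring LDB1 peaks. In untreated SMC3-AID cells the gaps were 737 kb and 1151 kb (9.29% and 6.25% of 8565 gaps). After auxin the gaps in these cells were again 737 kb and 1151 kb (11% and 7.63% of 7217 gaps). The gaps beside Bcl11a were longer than those beside Klf1 in all 3 LDB1 sets with peaks in the windows.

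CTCF and cohesin at Bcl11a lay mostly below the LDB1 peaks. Of the 10 CTCF peaks, 7 were below the first LDB1 peak at distances of 35.7 kb to 80.6 kb, 1 lay between the third and the fourth, and 2 were above the fourth at 26.8 kb and 89.3 kb. The first 3 LDB1 peaks shared an interval of 45.8 kb between the CTCF peaks chr11:23994122-23994521 and chr11:24039933-24040332, and the latter was 3.89 kb from the third LDB1 peak. The fourth LDB1 peak lay in the next interval, 44.9 kb long, which ended at chr11:24084805-24085204. The CTCF peak that separates the intervals was the only 1 of the 10 without RAD21. The 3 YY1 peaks that overlapped LDB1 were the highest-lying of the 7, and the 4 others lay 6.58 kb to 51.6 kb below the first LDB1 peak.

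In LDB1-AID cells RAD21 sat on 6 of 10 CTCF peaks in the Klf1 window and 9 of 10 in the Bcl11a window, beside 49.5% of all CTCF peaks. In SMC3-AID cells it sat on 4 of these 10 CTCF peaks in each window, beside 25.9%. In the other direction 6 of 7 and 9 of 11 RAD21 peaks carried CTCF, beside 80.9% of all RAD21 peaks, while 0 of 7 and 2 of 11 carried LDB1, beside 8.15%. RAD21 and CTCF midpoints were 4 bp to 56 bp apart at Klf1 (median 29.5 bp) and 1 bp to 172 bp at Bcl11a (median 72 bp), where the median over all overlapping RAD21 peaks was 55 bp. A site at chr11:23980843-23981414 held CTCF, RAD21 of both sublines and YY1, and was the only site of either window where YY1 met CTCF. Over all YY1 peaks 17.1% overlapped CTCF. RAD21 was found at 3 of 7 YY1 peaks of the Bcl11a window and at 0 of 3 of the Klf1 window, beside 27.6%, and LDB1 at 3 of 7 and 0 of 3, beside 17.1%.

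The untreated sublines differed in the number of RAD21 peaks called. Of the RAD21 peaks of untreated LDB1-AID cells, 4 of 7 at Klf1 and 4 of 11 at Bcl11a were found in untreated SMC3-AID cells, beside 43.4% of all. All 8 RAD21 peaks of SMC3-AID cells were found in LDB1-AID cells (94.6% of all), and all 8 lay on CTCF peaks, beside 92.3% of all. The CTCF peaks came from untreated LDB1-AID cells only, so this overlap is across sublines. Of the RAD21 peaks on CTCF, 4 of 6 and 4 of 9 were shared by the sublines, beside 50.7% genome-wide. Of the 3 RAD21 peaks without CTCF, which were those on or beside LDB1, 0 were shared, beside 12.4% genome-wide. The RAD21 set of SMC3-AID cells is the smaller one, with 15245 against 33204 peaks, and the part of set size in this difference was not tested.

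After SMC3 depletion 0 of 4 RAD21 peaks at Klf1 and 0 of 4 at Bcl11a were kept, beside 0.092% of all RAD21 peaks. For 0 of 8 peaks the Wilson 95% interval reaches up to 32.4%. The LDB1 peaks that remained in both windows in these cells were thus called without a RAD21 peak in either window. In untreated SMC3-AID cells 0 of the 4 LDB1 peaks of both windows overlapped a RAD21 peak of the same cells, beside 5.2% of all. At the kept Klf1 peak the nearest RAD21 peak of untreated SMC3-AID cells was 1.91 kb away. The nearest one of untreated LDB1-AID cells was 795 bp away.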

How the data were processed

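The authors deposited 9 consensus peak sets of 22 of the 65 labelled samples, as chromosome, start and end only. Other samples were not analysed here. The submitters' processing notes name Bowtie2, MACS2 2.2.9.1, deepTools 3.5.1 and build mm9. The peak threshold, the consensus rule and the filters are not given in the sources used here. Every interval was 400 bp wide. Read depth and peak height are unknown, so the number of peaks in a set can depend on depth, antibody and calling, and a missing peak is not shown to be missing binding.

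Sets were matched to groups through the sample labels. Peaks with at least 1 bp in a window were taken, and peaks were called shared when they overlapped by at least 1 bp. Genome-wide values used chromosomes 1 to 19, X and Y. Densities divide by the 2568 Mb between the outermost peaks of these chromosomes. Distances are between midpoints. Coordinates count from 1. "Below" and "above" mean lower and higher coordinates. Wilson 95% intervals were computed with statsmodels 0.14.6 and cover counting error only, since peaks are not replicates. No test was made. Overlap counting was checked on simulated peaks against bedtools 2.31.1.

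Gene annotation of mm9 was not used here, so no peak was assigned to an exon, intron or promoter. Neighbouring genes and promoter sequences came from RefSeq, GRCm38. Sites with LDB1 were all named; of the others, those with 3 proteins or at the flanks of LDB1 were. The windows, members and rules were chosen with earlier results of these data known.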

Additional observations from a re-analysis of the deposited data

How the results depend on the processing

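Of 114 alternative values for 46 counts, 100 stayed within 1.5 times the reported count. These include counts that were 0 under every setting. At Klf1, where LDB1 counts are 1 or 2, the overlap rule decided several values. With overlap of at least 50% of both peaks, the untreated sublines shared 0 LDB1 peaks in either direction. With a gap of at most 1 kb allowed, 1 LDB1 peak of LDB1-AID cells carried RAD21 and both peaks of the pair in SMC3-AID cells counted as kept after SMC3 depletion (2 in place of 1). When peaks had to share 200 bp to be merged, the Klf1 window had 4 sites with LDB1 and 0 with LDB1 and RAD21. With the RAD21 set of SMC3-AID cells, 0 LDB1 peaks at Bcl11a carried RAD21. No share over all peaks is given for these alternative settings, so whether these counts are unusual cannot be told.

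Widening the Klf1 window by 50 kb on both sides raised the LDB1 peaks to 6 in untreated LDB1-AID cells and to 7 before and 6 after auxin in SMC3-AID cells. RAD21 rose to 19 in LDB1-AID and 13 in untreated SMC3-AID cells, CTCF to 26 and YY1 to 16. LDB1 peaks kept after LDB1 depletion and RAD21 peaks kept after SMC3 depletion numbered 0 under every overlap rule. The rules could give no other count, since these auxin sets had 0 peaks even in windows widened by 50 kb. No paired analysis was possible because replicates had been combined in each set. For the same reason no replicate could be left out, and without scores no stricter threshold could be applied.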
